A study of Mus musculus with 9 samples.

Results

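The vacuolar proton pump and its regulators were followed at the level of their transcripts in BV2 cells, an immortalised line of wild-type mouse microglia. The family was defined by name: every gene of the count table whose symbol starts with Atp6v or Atp6ap, plus Tcirg1, Dmxl1, Dmxl2, Wdr7 and Rogdi. That rule found 31 of the 21951 genes in the table. It was proposed because Dmxl1 fell with radiation and was higher with triol, so the values of Dmxl1 are a description here and carry no test. The rule takes the other members by name whatever their values, but it was made with earlier results of these data known. Atp6v1fnb is named only as a neighbour of Atp6v1f and is not a pump subunit. RNA was sequenced in 9 libraries, 3 in each of 3 groups. Control cells received vehicle alone, 20% hydroxypropyl-β-cyclodextrin. Irradiated cells received this vehicle for 30 min before 10 Gy of X-rays in a single dose. Triol-treated cells received 10 µM of a steroid, 5α-androst-3β,5α,6β-triol, for 30 min before that dose, and no vehicle is named for them in their own labels. For triol replicates 2 and 3 the treatment label writes 7β and 8β in place of 6β, so their compound is taken from the titles. No group had triol without radiation, so values given below as with triol are from irradiated cells. By the labels, triol-treated cells may also differ from the other groups in vehicle, and triol and vehicle cannot be told apart. The labels do not say that replicates were separate cultures, so a p-value measures only how far these libraries differ, and that spread may be technical.

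The vacuolar H+-ATPase is a rotary machine that acidifies lysosomes, endosomes and phagosomes, and microglia depend on it to digest what they take up. Its cytosolic V1 sector hydrolyses ATP, and the turning rotor drives protons through the V0 sector in the membrane. The pump is switched off by detaching V1 from V0. Reattachment is helped by a complex of a DMX protein (Dmxl1 or Dmxl2), Wdr7 and Rogdi, which corresponds to the yeast RAVE complex. Several subunits exist as paralogs that place the pump in different membranes or cell types.

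Libraries held 13879062 to 18944051 counts. Markers of microglia and macrophages were detected for 11 of 11 genes, with summed RPM (reads of the genes per 1000000 reads of the library) of 2104 to 2281 for control, 1583 to 1662 for irradiated and 1614 to 1674 for triol-treated cells. P2ry12 and Tmem119, defining markers of microglia in the brain, had only 6 to 14 and 16 to 26 reads per library. Hepatocyte markers summed to 5.46 to 7.12, 4.54 to 7.25 and 12.7 to 14.9 RPM in the same order of groups. All 10 had reads in some library. Trf, with 71, 80 and 68 reads, gave most of the control sum. Alb had 4, 11 and 6 reads in control, 24, 11 and 2 after radiation and 61, 65 and 82 with triol. Serpina3k, Serpina1e, Fgb, Ahsg and Apoa1 also had more reads in every triol-treated library than in any other. Trf, Apoa2, Ttr and Cyp3a11 overlapped between triol-treated and control libraries. Neuron markers summed to 0.129 to 0.678, 1.51 to 2.28 and 2.57 to 3.19 RPM, and all 6 had reads in some library. In each of the next 3 lists 3 of 4 genes had reads. Astrocyte markers summed to 0.321 to 0.850, 1.97 to 2.09 and 1.51 to 2.06 RPM, with Aqp4 at 0 in all libraries. Oligodendrocyte markers summed to 5.60 to 6.11, 5.2 to 7.11 and 5.75 to 7.81 RPM, with Olig2 at 0, and kidney intercalated cell markers to 0.113 to 0.386, 0.0658 to 0.345 and 0.581 to 0.638 RPM, with Aqp6 at 0. The part of these markers in the differences between groups was not tested.

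Of the 31 members, 23 had enough counts to be tested. The 8 others include the paralogs known from kidney and other specialised epithelia. Atp6v0a4, Atp6v1g3 and Atp6ap1l had 0 counts in all 9 libraries, which allows a level of up to 0.0207 RPM over the libraries together (3 counts, counting error only). Atp6v1b1, Atp6v1c2, Atp6v1e2, Atp6v1fnb and Atp6v0e2 had at most 5 reads in any library. The transcripts of each subunit therefore came almost wholly from a single paralog, apart from subunits a and d; for subunit G a second paralog, Atp6v1g2, was detected at a low level.

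Levels between genes were compared as CPM, which are RPM after TMM scaling between libraries, per kilobase of annotated exon. By this measure Atp6v1a, the catalytic subunit, stood highest of the members in control cells, at 199.6 ± 1.53 CPM per kb (mean ± SD, n = 3). Next came Atp6v0d1, which couples the rotor to the proton ring, at 160.3 ± 7.22, and Atp6v1b2, the partner of the catalytic subunit, at 160.0 ± 5.22; the libraries of these neighbours overlapped. The ring subunit gene Atp6v0c stood at 124 ± 5.70 CPM per kb and the accessory gene Atp6ap1 at 107 ± 4.01. From Atp6v1g1 at 91.1 to Atp6v1h at 21.6 CPM per kb most of the other subunit genes formed a graded series. Several neighbours in it overlapped, among them Atp6v0b, Atp6v1f and Atp6v1c1. The subunit genes Atp6v0d2, at 11.5 ± 1.17, and Atp6v0a2, at 7.05 ± 0.227 CPM per kb, stood lower. Among the regulators, Dmxl1 was at 16.7 ± 0.140, Wdr7 at 11.8 ± 0.694, Dmxl2 at 7.11 ± 0.166 and Rogdi at 6.78 ± 0.479 CPM per kb, and the libraries of Dmxl1 and Wdr7 did not overlap. Dmxl2, Atp6v0a2 and Rogdi followed each other with overlapping libraries. Atp6v1g2, a G subunit paralog best known from neurons, was lowest of the tested members at 0.570 ± 0.0912 CPM per kb. The exon length of Dmxl1 is 21923 bases over all annotated transcripts, as used here, and 12247 in the longest. Its level per kb depends on that choice. For Atp6v1a these lengths are 6044 and 4234 bases, and for Atp6v1b2 they are 5305 and 2825. The order of members, with the first place of Atp6v1a and the overlaps of neighbours, therefore depends on that choice as well. Atp6v1a had 1206 CPM and Atp6v1b2 849 CPM in control cells. Per kb of the longest transcript, Atp6v1b2 would thus stand above Atp6v1a.

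**Figure D1:**
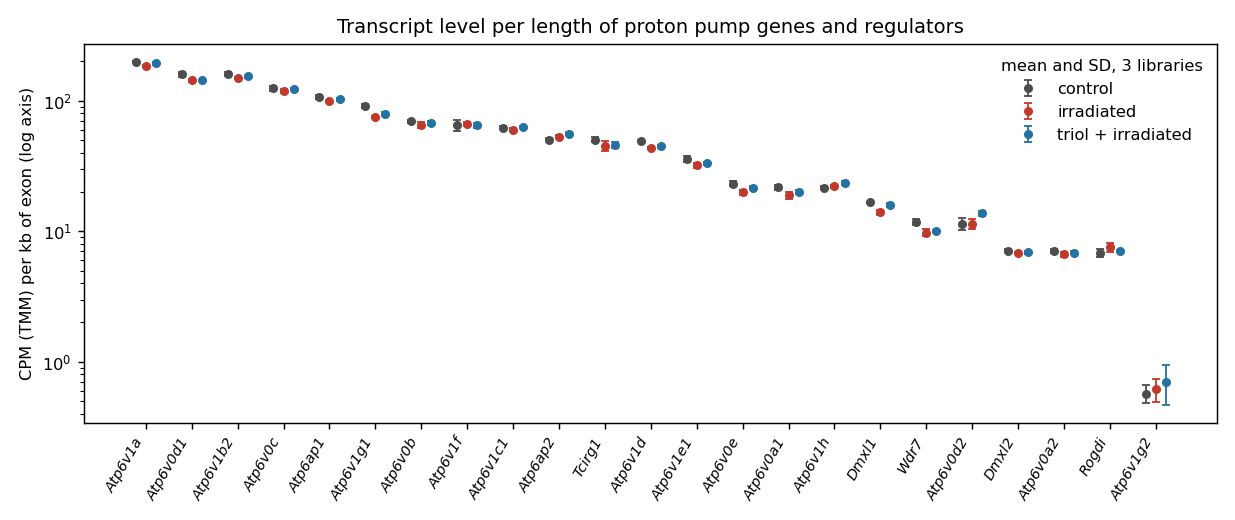
Level per exon length of the 23 tested members, in CPM per kb on a log axis, as mean and SD of 3 libraries for control (grey), irradiated (red) and triol-treated irradiated cells (blue). The members run from Atp6v1a at 199.6 to Atp6v1g2 at 0.570 CPM per kb in control cells, and the differences between groups are small beside this range over members.

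Many pump genes are known targets of the MiT/TFE transcription factors, which bind the palindrome CACGTG, most often within TCACGTGA. Start regions of 300 bases (250 before the annotated start and 50 after it) from RefSeq on GRCm38.p6 matched 22 of the 31 members by symbol. CACGTG occurred in 4 of these 22 and in 8.09% of all 27025 genes with such a region. Of the tested members 15 had a region and 4 held the motif, beside 11.9% of the 8977 tested genes with a region. The longer TCACGTGA, which contains the shorter motif, occurred in 3 of the 15 tested members and in 2.24% of those tested genes. Both motifs read alike on the 2 strands. The 4 matching regions are shown because they hold these letters, with CACGTG in capitals, 5′ to 3′ on the gene's strand:
Atp6v1a, chr16:44139320-44139439, minus strand: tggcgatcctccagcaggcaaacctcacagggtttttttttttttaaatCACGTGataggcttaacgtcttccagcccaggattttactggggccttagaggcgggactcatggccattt
Atp6v0b, chr4:117887310-117887429, minus strand: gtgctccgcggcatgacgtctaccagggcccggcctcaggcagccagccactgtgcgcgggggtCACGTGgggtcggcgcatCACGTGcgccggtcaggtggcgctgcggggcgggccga
Atp6v0d1, chr8:105566045-105566164, minus strand: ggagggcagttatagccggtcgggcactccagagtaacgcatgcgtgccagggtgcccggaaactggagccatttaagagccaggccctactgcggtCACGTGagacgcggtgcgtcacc
Atp6v0e, chr17:26676296-26676415, plus strand: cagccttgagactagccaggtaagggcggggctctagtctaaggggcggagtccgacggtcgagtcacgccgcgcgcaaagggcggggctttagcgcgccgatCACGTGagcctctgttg
The motif begins at position −131 from the start in Atp6v1a, at −36 and −18 in Atp6v0b, at −3 in Atp6v0d1 and at 4 in Atp6v0e. Atp6v0b alone lacks the longer form. For Atp6v1a, Atp6v0b and Atp6v0e the RefSeq start lies inside the span that GENCODE gives the gene. A match describes letters only and does not show that a factor binds there.

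The first comparison asked what irradiation did to the pump's transcripts. Small falls were spread over both sectors. In bulk RNA, less transcript in every cell and fewer cells that hold it cannot be told apart. Of the 22 tested members other than Dmxl1, 11 fell, 0 rose and 11 did not pass the edgeR test at an adjusted p of 0.05. Falls made up 50% of these members, beside 22.2% of all 11295 tested genes that fell and 22.1% that rose. With upper quartile scaling 9 fell and 1 rose, and DESeq2 called 11 and 0. The median log2 fold change of the 22 was −0.09, against 0.0067 over all tested genes. The libraries of control and irradiated cells did not overlap for 54.5% of the 22 and for 50.7% of all tested genes. Because the family was proposed from this contrast, no weight is put on these shares.

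In the V1 sector 5 of 9 tested genes fell and 0 rose, beside 22.2% and 22.1% of all tested genes. No weight is put on this count either. Atp6v1g1, which encodes a subunit of the stator stalk, lies on chromosome 4 from 63544772 to 63550750 (GRCm38). Control libraries held 108, 101 and 101 CPM, irradiated libraries 86.7, 84.3 and 85.4, and triol-treated libraries 86.6, 92.6 and 88.7. All control libraries lay above all others. Its log2 fold change with radiation was −0.27 (SE 0.04, adjusted p = 2.1e-06).

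The rotor gene Atp6v1d (chromosome 12, 78840725 to 78861638) was at 229, 225 and 230 CPM in control cells. Irradiated libraries held 204, 197 and 203 CPM, and triol-treated libraries 206, 213 and 200.2. Again no control library overlapped with the others, and the log2 fold change with radiation was −0.18 (SE 0.03, adjusted p = 3.2e-05). Atp6v1e1, the partner of G in the stator, stood at 155, 143 and 144 CPM in control, 125, 134 and 134 after radiation and 139.7, 136 and 133 with triol (log2 −0.17 with radiation, SE 0.04, adjusted p = 7.7e-04). Here too the control libraries were the highest.

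Atp6v1a, the catalytic subunit, went from 1205, 1216 and 1198 CPM in control to 1096, 1134 and 1120.4 in irradiated libraries, and stood at 1195, 1153 and 1156 with triol. The fall with radiation was small but larger than the spread between libraries (log2 −0.11, SE 0.03, adjusted p = 0.00105). Atp6v1b2 was at 881, 836 and 830.2 CPM in control, 775, 791 and 804 after radiation and 822, 833 and 789 with triol, with a log2 fold change of −0.10 with radiation (SE 0.03, adjusted p = 0.0045). In the fitted values the transcript of the catalytic subunit fell by 7.39% and that of its partner fell by 6.89%. By contrast, Atp6v1c1 (log2 −0.05), Atp6v1f (0.03), Atp6v1g2 (0.13, 95% interval −0.49 to 0.74) and Atp6v1h (0.04) did not pass. Subunits C and H are the parts of V1 that take part in its detachment from V0.

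In the V0 sector 4 of 8 tested genes fell and 0 rose, beside 22.2% and 22.1% of all tested genes, and again no weight is put on the count. Atp6v0e, which encodes a small membrane subunit, lies on chromosome 17 from 26663231 to 26699647. It was at 89.9, 85.9 and 82.2 CPM in control, 73.7, 77.3 and 71.2 after radiation and 81.1, 78.1 and 81.8 with triol. The control libraries were highest and the irradiated ones lowest, and the log2 fold change with radiation was −0.22 (SE 0.05, adjusted p = 2.5e-04).

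Atp6v0a1 encodes the a subunit paralog that prevails in nerve cells and forms part of the proton path. It was at 148, 144 and 136 CPM in control, 116, 127 and 130.4 after radiation and 128, 131 and 137 with triol, with a log2 fold change of −0.20 with radiation (SE 0.04, adjusted p = 2.3e-04). All control libraries were above the irradiated ones, of which replicate 1 was the lowest. Atp6v0d1 (chromosome 8, 105524465 to 105566047) stood at 300.5, 287 and 275 CPM in control, 253, 264 and 254 after radiation and 257, 256 and 259 with triol, and its log2 fold change was −0.16 (SE 0.03, adjusted p = 1.6e-04). All its control libraries were above the others.

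Tcirg1, which encodes the a3 paralog of lysosomes and osteoclasts, had a log2 fold change of −0.16 with radiation (SE 0.05, adjusted p = 0.0248), with overlapping libraries. Its call was lost with upper quartile scaling (adjusted p = 0.0613) and without control replicate 1 (0.0511), irradiated replicate 2 (0.0662) or irradiated replicate 3 (0.0727). The proton ring genes Atp6v0c and Atp6v0b had log2 fold changes of −0.07 and −0.08 and did not pass, nor did Atp6v0a2, the Golgi paralog, at −0.08. Both ring genes were called as lower when control replicate 3 or irradiated replicate 2 was left out, with adjusted p of 0.00493 and 0.0287 for Atp6v0c and 0.0407 and 0.0465 for Atp6v0b, and Atp6v0c also without a filter on low counts (0.0448). Of the exonic bases of Atp6v0b, 11.9% overlap a gene on the other strand, and no source used here gives the strand setting of the counting.

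**Figure D2:**
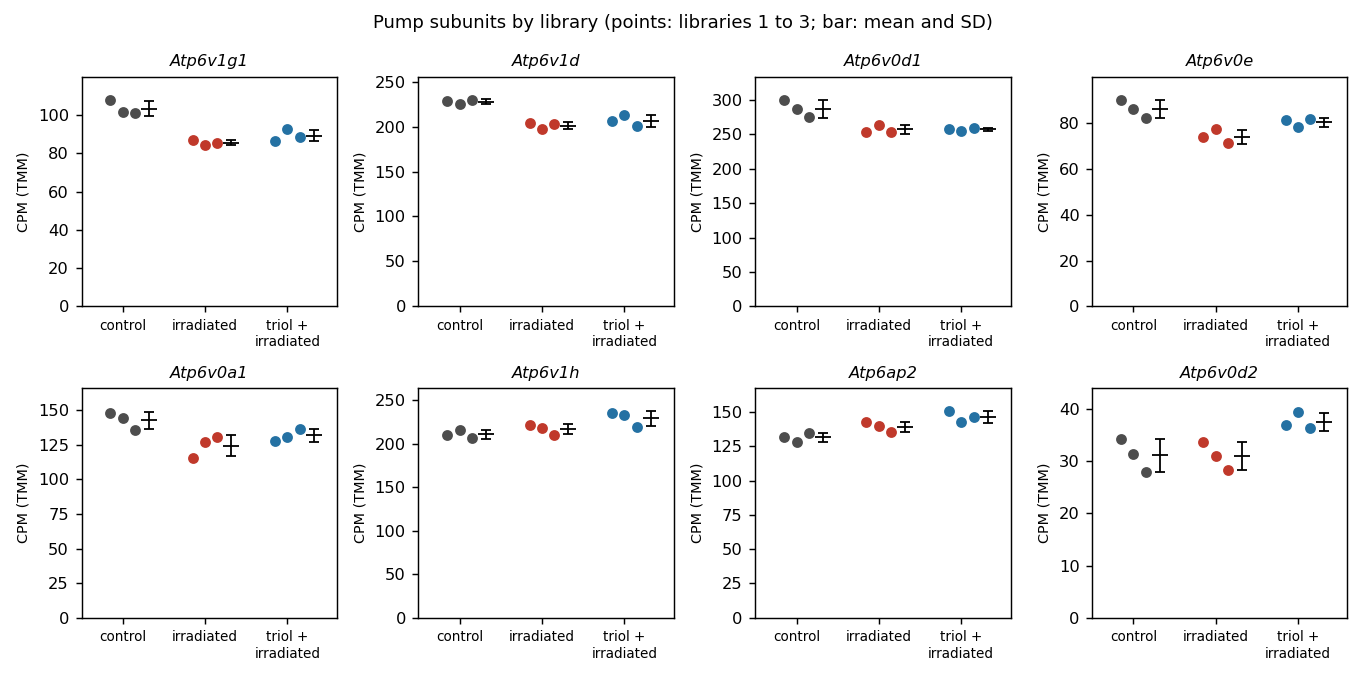
CPM of 7 subunit genes and the accessory gene Atp6ap2 in each library (points, replicates 1 to 3 from left to right) with the mean and SD of the group (bar), each vertical axis starting at 0. For Atp6v1g1, Atp6v1d, Atp6v0d1 and Atp6v0e every control library is above every irradiated library, while for Atp6v0d2 the triol-treated libraries, at 36.3 to 39.4 CPM, are above all others.

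The accessory proteins, which sit in the lumenal part of V0 and take part in its assembly, did not move together. Atp6ap1 fell by 0.10 on the log2 scale with radiation (SE 0.03, adjusted p = 0.00999), a call lost with upper quartile scaling (0.0665) and without control replicate 1 (0.0792). Atp6ap2, also known as the (pro)renin receptor, was at 132, 129 and 135 CPM in control, 143, 139.8 and 135.3 after radiation and 151, 143 and 146 with triol. Its irradiated libraries were all above control, narrowly in replicate 3. With radiation alone the log2 fold change of 0.08 (SE 0.04) did not pass (adjusted p = 0.0867), but it passed with upper quartile scaling (0.0186).

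Among the regulators of assembly, Dmxl1 and Wdr7, which both lie on chromosome 18, were lower in irradiated cells. Dmxl1 was at 369, 368 and 363 CPM in control, 298, 303 and 323 after radiation and 347, 365 and 339 with triol. Irradiated libraries were the lowest, and triol-treated libraries lay between them and control, with triol replicate 2 inside the control range. As Dmxl1 was chosen for its values, no SE or interval is given here. The log2 difference was −0.25 with radiation, 0.19 for triol against irradiated cells and −0.06 for triol-treated against control cells. Over the alternatives tried, these ranged from −0.29 to −0.22, from 0.16 to 0.22 and from −0.10 to −0.04.

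Wdr7, the partner of the DMX proteins in the assembly complex, was at 112, 123 and 125 CPM in control, 93.5, 99.7 and 106 after radiation and 104, 101 and 102 with triol. All control libraries were above all others, and it fell by 0.27 on the log2 scale with radiation (SE 0.05, adjusted p = 5.1e-06). Against irradiated cells the triol difference was 0.03 (95% interval −0.06 to 0.13), and against control cells it was −0.24 (SE 0.04, adjusted p = 3.2e-05). For Dmxl1 and Wdr7 the log2 differences with radiation were −0.25 and −0.27, while those for triol against irradiated cells were 0.19 and 0.03. That difference between the genes was not tested, as Dmxl1 was chosen for it.

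Dmxl2, the other DMX protein, was at 93.1, 93.4 and 97.0 CPM in control, 89.9, 92.4 and 90.7 after radiation and 90.8, 89.1 and 94.5 with triol. It did not pass in any comparison, with log2 differences of −0.05, 0.01 and −0.05 for radiation, triol against irradiated and triol against control. Rogdi was at 17.0, 15.9 and 14.8 CPM in control, 19.3, 16.3 and 17.4 after radiation and 16.7, 16.4 and 16.4 with triol. Its log2 difference with radiation was 0.16 (95% interval −0.03 to 0.34), also not past the threshold, and 10.2% of its exonic bases overlap a gene on the other strand.

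**Figure D3:**
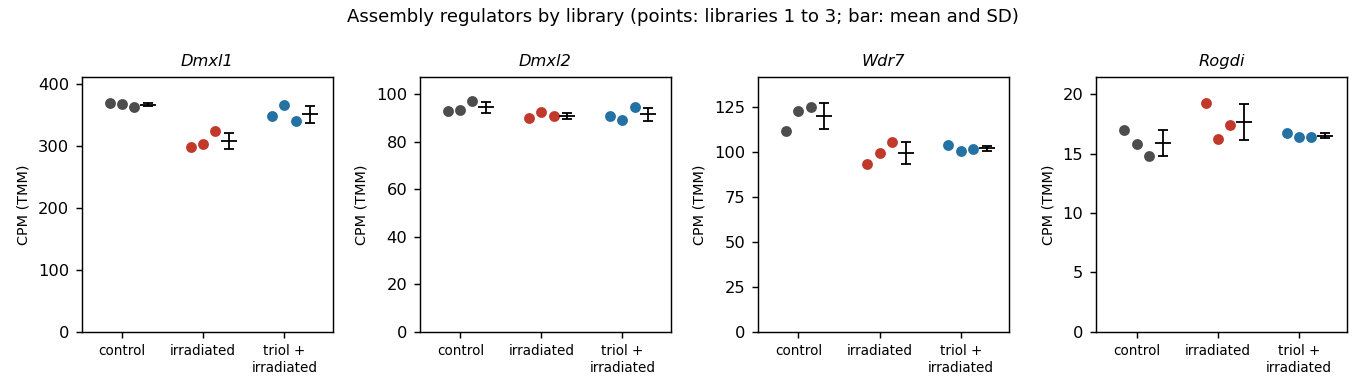
CPM of the 4 assembly regulators in each library (points) with the group mean and SD (bar), each vertical axis starting at 0. Dmxl1 is lowest in the irradiated libraries (298 to 323 CPM) and higher with triol (339 to 365), whereas Wdr7 stays near 102 CPM with triol, below all control libraries.

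The second comparison set triol-treated irradiated cells against irradiated cells given vehicle. It shares the irradiated libraries with the first, so a gene that is low there by chance is lower in one and higher in the other. Of the 22 members other than Dmxl1, 0 passed the edgeR test, beside 0.106% of all tested genes (0.0974% higher and 0.00885% lower), and 4 had an unadjusted p under 0.05 (18.2%, beside 7.66% of all tested genes). Limma-voom also called 0, as did DESeq2, in which 14 of the 22 had an adjusted p. Values were positive for 20 of the 22 (17 to 20 over the alternatives, 19 with upper quartile scaling, where Atp6v0d1 changed sign). The median log2 difference was 0.05, against 0.0016 over all tested genes. The 2 groups of libraries did not overlap for 18.2% of the members and 13.2% of all tested genes. This contrast too was used to propose the family, and no weight is put on these shares.

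Atp6v0d2, the d subunit paralog of osteoclasts and macrophages, which lies on chromosome 4 from 19876841 to 19922605, had the smallest p of these members. It was at 34.2, 31.4 and 27.9 CPM in control, 33.6, 31.0 and 28.2 after radiation and 36.8, 39.4 and 36.3 with triol. All triol-treated libraries were above all others, and control and irradiated libraries overlapped. Against irradiated cells the log2 difference was 0.28 (95% interval 0.13 to 0.42, unadjusted p = 4e-04, adjusted p = 0.136), and it passed only without a filter on low counts (adjusted p = 0.0415). With radiation alone its log2 fold change was −0.01 (95% interval −0.16 to 0.14). Of 4 osteoclast markers, Calcr was at 0 in all libraries. Their sum was 532 to 591 RPM in control, 501 to 534 after radiation and 546 to 571 with triol, nearly all of it from Ctsk, with 7002 to 10003 reads per library. Acp5 had 10, 8 and 13 reads in control, 8, 11 and 4 after radiation and 22, 27 and 19 with triol, so its triol-treated libraries were also above all others in reads. Ocstamp, the remaining marker, had 377, 481 and 383 reads in control, 335, 317 and 337 after radiation and 391, 370 and 451 with triol. For Ocstamp the reads with triol overlapped with those of control. Reads are not corrected for library size. Each triol-treated library held at least 17230866 counts, and each irradiated one at most 15192203. These markers' part in the value of Atp6v0d2 was not tested.

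The other members with an unadjusted p under 0.05 were Atp6v0e (log2 0.12, adjusted p = 0.508), Atp6v1a (0.07, adjusted p = 0.567) and Atp6v1h (0.08, adjusted p = 0.582). For the V1 genes that had fallen most with radiation the triol difference was 0.06 for Atp6v1g1 (95% interval −0.03 to 0.15) and 0.04 for Atp6v1d (−0.03 to 0.11). Atp6v0d1 had a value of 0.00 (−0.07 to 0.07). Atp6v1f and Rogdi had negative values, −0.03 and −0.10.

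The third comparison set triol-treated irradiated cells against control cells. Of the 22 members 3 rose and 6 fell, which is 13.6% and 27.3% beside 21.5% and 21.7% of all tested genes. Counts were 3 and 4 with upper quartile scaling, 3 and 6 with DESeq2, 3 and 7 with limma-voom and 3 and 8 without a filter on low counts. The comparison shares libraries with the first and the second and is no separate evidence for either.

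The genes that rose were Atp6v0d2, Atp6ap2 and Atp6v1h. Atp6v0d2 rose by 0.27 on the log2 scale (SE 0.07, adjusted p = 0.0021) and Atp6ap2 by 0.16 (SE 0.04, adjusted p = 9.2e-04). Atp6v1h, which encodes the subunit that inhibits ATP hydrolysis in detached V1, was at 209, 216 and 206 CPM in control, 221, 218 and 210.1 after radiation and 235, 233 and 219 with triol. Its triol-treated libraries were all above control, with a log2 difference of 0.12 (SE 0.04, adjusted p = 0.0046) that lost its call without triol replicate 1 (0.0569).

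Those that fell were Wdr7, Atp6v1g1 (−0.21, adjusted p = 9.1e-05), Atp6v0d1 (−0.16, adjusted p = 1.6e-04), Atp6v1d (−0.14, adjusted p = 6.0e-04), Atp6v0a1 (−0.11, adjusted p = 0.0253) and Atp6v1e1 (−0.11, adjusted p = 0.0184). The calls of the last 2 changed with the settings. Atp6v0a1 lost its call with DESeq2 (0.0539), with upper quartile scaling (0.0669) and without control replicate 1 (0.0955), control replicate 2 (0.0681), triol replicate 1 (0.0932) or triol replicate 2 (0.0540). Atp6v1e1 lost it with upper quartile scaling (0.0544) and without control replicate 1 (0.120) or triol replicate 3 (0.0588). Tcirg1 did not pass (log2 −0.13, adjusted p = 0.0576) although all its triol-treated libraries were below control, and it was called with DESeq2 (0.0344), limma-voom (0.0162), the 2 groups fitted alone (0.00507), no filter on low counts (2.8e-04) and without triol replicate 2 (0.0197).

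Without control replicate 3, which gave 9 lower members, Atp6v0e (adjusted p = 0.0228), Atp6v1b2 (0.0246) and Atp6ap1 (0.0374) were also called as lower. Atp6v1b2 was called as lower without a filter on low counts as well (0.0401). The remaining members did not pass. Atp6v0e had a log2 difference of −0.10, Atp6v1b2 of −0.06, Atp6ap1 of −0.05, Atp6v1a of −0.05, Atp6v0b of −0.04 and Atp6v0a2 of −0.04. Values for Atp6v0c (−0.01), Atp6v1c1 (0.01) and Atp6v1f (0.00) were near 0. Rogdi was at 0.06, and Atp6v1g2, with 19 to 40 reads per library, at 0.33 (95% interval −0.25 to 0.90).

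**Figure D4:**
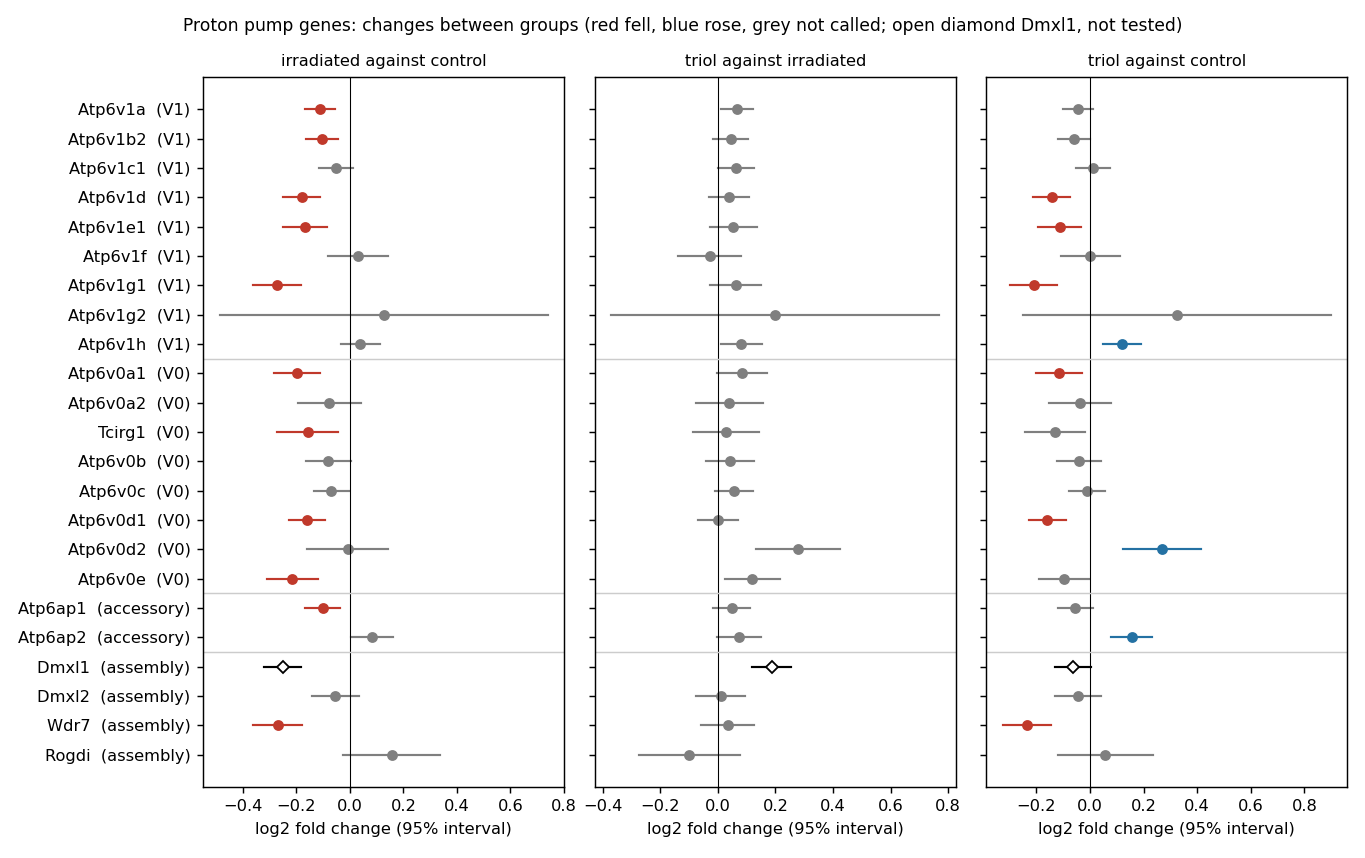
Log2 fold changes with 95% intervals for the 23 tested members in the 3 comparisons, grouped into V1, V0, accessory and assembly genes. Red points fell, blue points rose and grey points did not pass the edgeR test. The open diamond is Dmxl1, which was in the same fit but has no call because it was chosen for its values. Its intervals are drawn as description and are no test. With radiation 11 members lie at negative values in red, triol against irradiated cells has 0 coloured points, and against control cells 3 are blue and 6 red.

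Where a subunit had several expressed paralogs, the share of each in their summed level per kb was compared between groups. Among the a subunits Tcirg1 held 63.6% ± 0.711 in control, 63.6% ± 3.20 after radiation and 63.0% ± 1.15 with triol (mean ± SD, n = 3). Atp6v0a1 held 27.5% ± 0.426, 26.9% ± 2.53 and 27.6% ± 0.676, and Atp6v0a2 8.92% ± 0.330, 9.47% ± 0.682 and 9.45% ± 0.596. The libraries overlapped in each of these comparisons, and irradiated replicate 1 stood apart in its group with 24.0% for Atp6v0a1 and 67.2% for Tcirg1.

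The share of Atp6v0d2 in the d subunit was 6.99%, 6.73% and 6.28% in control, 8.05%, 7.19% and 6.83% after radiation and 8.64%, 9.23% and 8.46% with triol. All triol-treated libraries were above all others, with mean differences of 1.42 percentage points from irradiated and 2.11 from control cells (exact two-sided permutation p = 0.1 for each, the smallest that 3 against 3 libraries can give, and 0.5 after Benjamini-Hochberg adjustment over 15 such comparisons). Atp6v0d1, the other gene in the d subunit ratio, was lower than control after radiation and with triol (log2 −0.16 for each). Atp6v1g2 made up 0.621% ± 0.0805 of the G subunit in control, 0.810% ± 0.154 after radiation and 0.883% ± 0.278 with triol. Its irradiated libraries were all above control (exact permutation p = 0.1, adjusted 0.5), while Atp6v1g1, the other gene in that ratio, fell. The neuron marker sum given above was also higher in irradiated than in control libraries, and most of its reads there were from Tubb3, with 2, 2 and 0 reads in control and 29, 16 and 30 after radiation. Snap25 had 1, 5 and 1 reads in control, and it, Syt1 and Rbfox3 had 0 in all irradiated libraries. The part of these markers in the share of Atp6v1g2 was not tested.

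**Figure D5:**
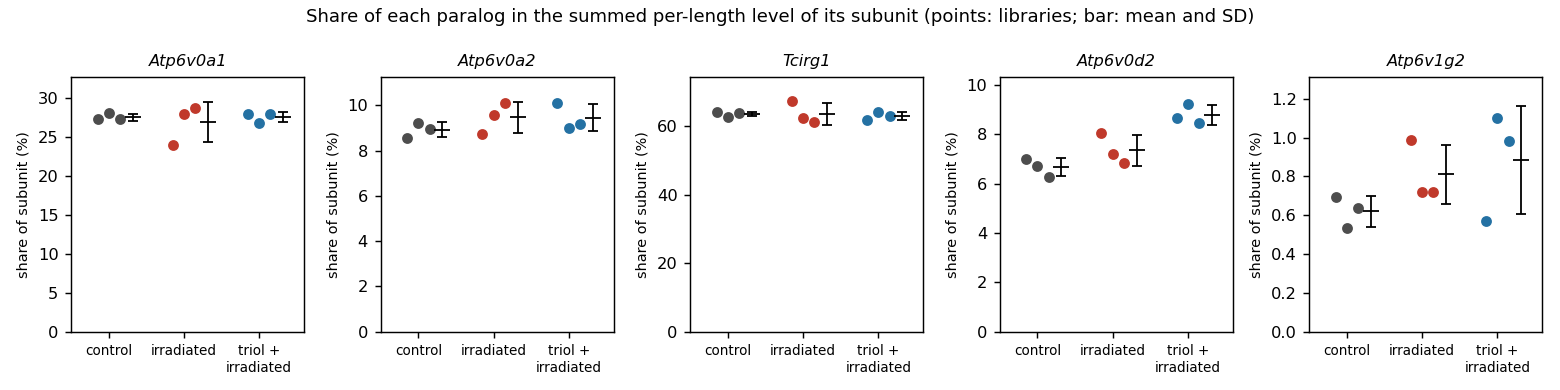
Share of each paralog, in percent of the summed CPM per kb of its subunit, in each library (points) with the group mean and SD (bar); vertical axes start at 0. Atp6v0d2 is highest in the triol-treated libraries (8.46% to 9.23%), and the shares of the a subunit genes overlap between groups.

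Genes that act next to the pump were taken from 5 lists with 38 genes, of which 34 were tested. With radiation 16 fell and 2 rose, with 0 called for triol against irradiated cells (6 at an unadjusted p under 0.05, and 0 by DESeq2 or limma-voom) and 15 lower and 2 higher for triol-treated against control cells. Over all tested genes 22.2% fell and 22.1% rose with radiation, 7.66% had an unadjusted p under 0.05 for triol against irradiated cells, and 21.7% were lower and 21.5% higher for triol-treated against control cells. Radiation calls numbered 13 to 18 lower and 2 to 3 higher with single libraries left out. The median log2 fold change of the 34 with radiation was −0.13, against 0.0067 over all tested genes. Because the lists were chosen with earlier results of these data known, no weight is put on these counts or this median. Of the 3 factors that build V0 in the endoplasmic reticulum, Vma21 fell (log2 −0.14, SE 0.04, adjusted p = 0.00604; 0.0548 without control replicate 2), while Ccdc115 and Tmem199 did not pass. Among 4 tested TLDc domain proteins, a group that binds the pump, Ncoa7 (−0.28, adjusted p = 6.6e-04) and Oxr1 (−0.19, adjusted p = 9.9e-04) fell.

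Of 12 tested ion channels and exchangers of endosomes and lysosomes 5 fell and 1 rose with radiation, beside 22.2% and 22.1% of all tested genes. The calcium and sodium channel gene Tpcn2 had 29.5 ± 0.772 CPM in control and 20.7 ± 0.211 in irradiated cells and fell by 0.51 on the log2 scale (SE 0.07, adjusted p = 2.2e-07). The chloride-proton exchanger genes Clcn4 and Clcn3, whose products carry the counter-ion of the pumped protons, fell by 0.36 (SE 0.06) and 0.19 (SE 0.03) on the log2 scale. Snx10, which encodes a sorting nexin that binds the pump, was the gene that rose, by 0.25 (SE 0.05, adjusted p = 2.3e-05), and is named after its values were seen.

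On the lysosome surface the pump acts with the Ragulator and the Rag GTPases in sensing amino acids. Of 11 tested genes of this group 6 fell and 1 rose with radiation, beside the same 22.2% and 22.1%. Rragd, which encodes a Rag GTPase and is a known target of MiT/TFE factors, had 9, 9 and 3 reads in control, 29, 32 and 32 after radiation and 33, 35 and 39 with triol. This is 0.453 ± 0.233 CPM in control and 2.12 ± 0.153 after radiation, a rise of 2.21 on the log2 scale (SE 0.35, adjusted p = 1.4e-06) that rests on few reads. Fnip1 and Fnip2, partners of folliculin, fell by 0.18 (SE 0.03) and 0.13 (SE 0.03). Of the 4 MiT/TFE factor genes, which switch on lysosomal genes, Tfeb stood at 21.3 CPM in control, 15.7 ± 0.917 after radiation and 14.9 ± 0.927 with triol and fell by 0.44 on the log2 scale with radiation (SE 0.09, adjusted p = 6.1e-05). Tfe3 fell by 0.13 (SE 0.05, adjusted p = 0.0376), a call lost with DESeq2 (0.0723), with upper quartile scaling (0.105) and without control replicate 1 (0.213), control replicate 2 (0.0564) or irradiated replicate 1 (0.201). Mitf and Tfec did not pass.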

How the data were processed

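The authors deposited raw read counts for each gene. The submitters' processing notes name GRCm38 and, as tools, STAR 2.7.1a, fastp 0.18.0, FastQC and, from Subread 1.6.3, featureCounts. No source used here gives the annotation release, the strand setting or the treatment of multi-mapping reads. All 21951 identifiers were found in GENCODE M21, from which coordinates (1-based) and exon lengths were taken. Groups and replicate numbers came from the titles. Members and lists were chosen with earlier results of these data known. Genes kept by filterByExpr (11295) were tested with edgeR 4.0.16 in R 4.3.3 (quasi-likelihood F test, TMM, robust, 1 fit over 9 libraries, two-sided, Benjamini-Hochberg adjustment over all tested genes, threshold 0.05). SE is the absolute log2 fold change divided by the square root of F. DESeq2 1.42.0 and limma-voom (limma 3.58.1), another scaling, no filter, 2-group fits, a replicate block and left-out libraries were alternatives. Values in each library are given for the 12 members with the smallest p and for the assembly regulators. From each list the 3 called genes with the smallest p with radiation are named.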

Additional observations from a re-analysis of the deposited data

How the results depend on the processing

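Members called as lower with radiation (11) numbered 9 (without control replicate 1) to 13 (without control replicate 3) when single libraries were left out, and the 6 lower and 3 higher with triol against control 4 to 9 and 2 to 3. Upper quartile scaling called 1 member higher with radiation in place of 0, and the fit without a filter called 1 higher with triol against irradiated cells in place of 0. Libraries with the same replicate number did not deviate together (correlations −0.05 to 0.04). This does not settle whether the numbers pair them by design. With the replicate block 11 members were lower with radiation and 0 were called for triol against irradiated cells. For triol against control 3 were higher and 7 lower with that block, with Tcirg1 added (adjusted p = 0.0394). Sign changes occurred only among values not past the threshold. With upper quartile scaling these were Atp6v0d2 with radiation (0.0207), Atp6v0d1 for triol against irradiated cells (−0.0074) and Atp6v0c for triol against control (0.0093). Without a filter Atp6v0d1 stood at −0.0038, and with 2 groups alone at −0.0030; against control Atp6v1f stood at −0.0145 and Atp6v1c1 at −0.0046 without a filter, and Atp6v1f at −7e-04 with DESeq2. With single libraries left out, ranges that crossed 0 were, with radiation, Atp6v0d2 −0.0863 to 0.0547, Atp6v1f −0.0418 to 0.0930 and Atp6v1g2 −0.0577 to 0.233. For triol against irradiated cells they were Atp6v0b −0.0037 to 0.0656, Atp6v1f −0.0574 to 0.0081, Atp6v0d1 −0.0136 to 0.0176, Dmxl2 −0.0200 to 0.0259, Atp6v1g2 −0.0128 to 0.437, Wdr7 −0.0150 to 0.0794 and Tcirg1 −0.0173 to 0.0950. Against control they were Atp6v1f −0.0744 to 0.0604, Atp6v1c1 −0.0131 to 0.0242, Rogdi −0.0010 to 0.0964 and Atp6v0c −0.0588 to 0.0049. With the length of the longest transcript, the share of Atp6v0a1 became 28.8% in control and 28.8% in triol-treated libraries, that of Atp6v0a2 7.44%, 7.91% and 7.89%, and that of Atp6v1g2 0.826%, 1.08% and 1.17% in control, irradiated and triol-treated libraries. The causes of these changes were not tested. Depth limits Atp6v1g2 and the 8 members that were not tested.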
